A study of Mus musculus with 4 samples.

Results

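Transforming growth factor beta (TGF-beta) signalling was followed through 10 genes of the 31253 in the count tables, matched by gene symbol: the ligands Tgfb1, Tgfb2 and Tgfb3, the latency proteins Nrros and Ltbp1, the receptors Tgfbr1 and Tgfbr2, the signal transducers Smad3 and Smad7, and the target gene Tgfbi. The cells came from the injured (ipsilateral) brain hemisphere of adult mice, male and/or female and listed as C57B6, taken 3 days after tMCAO (transient occlusion of the middle cerebral artery, a stroke model with a temporary block of blood flow followed by reperfusion). The Ms4a3_cKO mice are given as Htr2b ERCre; Ms4a3-Cre and the Flox_control mice as their Htr2b flox/flox littermates; tamoxifen, then a washout of 3 days, preceded surgery, and the labels describe this for both genotypes alike. Htr2b encodes a serotonin receptor, and Ms4a3 is active in progenitors of granulocytes and monocytes, so that its Cre marks these cells and their progeny. Which Cre allele acted cannot be read from the labels, which name both an ERCre and Ms4a3-Cre. Each genotype had 2 libraries; nothing says whether these are separate animals, so p-values measure the spread between libraries, which may be technical.

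TGF-beta ligands are secreted in a latent complex, held by binding proteins such as Ltbp1 in the extracellular matrix or Nrros on the surface of myeloid cells, and are freed by integrins or proteases. The free ligand binds the receptor kinase pair Tgfbr2 and Tgfbr1, which phosphorylates Smad2 and Smad3; these enter the nucleus with Smad4 and switch on targets that include Smad7, an inhibitor that shuts the receptor down. In the mouse brain, Tgfb1 and its receptors are needed for microglia to keep their mature identity.

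After filtering, 59685 cells remained, between 13215 and 16267 per library, from libraries of 77580518 to 105566650 unique molecular identifiers (UMIs, tags that count individual mRNA molecules). Median UMIs per cell were 3764 and 4004 in Ms4a3_cKO libraries and 6599 and 5523 in Flox_control libraries, and 15 cell barcodes occurred in more than 1 library. Clustering gave 27 clusters, named from marker genes as 14 cell classes plus 2 cycling clusters and 1 cluster left without a name; each name means cells like that type, as judged from their markers. Levels are given as CPM, here the UMIs of a gene per 1000000 UMIs of a class in a library, and values for 4 libraries run Ms4a3_cKO 1 and 2, then Flox_control 1 and 2. Htr2b, the targeted gene, had 10.7 and 26.3 CPM in monocyte-macrophages of Ms4a3_cKO brains against 83.8 and 131 in those of Flox_control brains, without overlap, while microglia had 86.0 and 74.1 against 42.2 and 95.3.

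The libraries stood apart within the classes. Monocyte-macrophage cluster 4 held 1907 and 1187 cells of the Ms4a3_cKO libraries and 11 and 549 of the Flox_control libraries, cluster 5 held 5 and 29 against 3081 and 523, and cluster 6 held 72 and 195 against 77 and 2960. Clusters 5 and 6 were named on thinner grounds than cluster 15: each had 11 of 15 monocyte-macrophage markers at 20 CPM or more, but 2 and 1 of these among its 10 leading genes, against 15 of 15 and 4 in cluster 15. In clusters 5 and 6 no marker list had a mean log2 fold over the other cells above 0 (the highest were -0.23 and -0.24), and cluster 6 had 1 border macrophage marker among its leading genes too. Cluster 4, with 1907 of 2913 and 1187 of 1549 of the Ms4a3_cKO monocyte-macrophages, had 3 monocyte-macrophage and 2 border macrophage markers among its 10 leading genes, but the border macrophage list scored slightly higher over all markers (1.02 against 0.93). Among microglia, cluster 3 held 129 and 575 cells of the Ms4a3_cKO libraries against 3024 and 697 of the Flox_control libraries. Levels by library are therefore given for the members the genotype results turn on, and genotype, library and cluster makeup cannot be told apart in the summed classes.

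Tgfb1, the main TGF-beta of immune cells, was highest in microglia. It had 62.3 and 62.7 CPM in microglia of Ms4a3_cKO brains and 31.2 and 64.0 in those of Flox_control brains, with a mean of 55.0 ± 15.9 (SD, n = 4 libraries). Dendritic cells followed at 38.9 ± 16.2 and border macrophages, the resident macrophages of the meninges and vessel walls, at 31.3 ± 10.7. These neighbours in the order overlapped between libraries. Astrocytes, oligodendrocytes, their precursors and neuroblasts or neurons all averaged under 5 CPM. Microglia contributed 59.0 and 70.5% of all Tgfb1 UMIs in the Ms4a3_cKO libraries and 58.1 and 49.6% in the Flox_control libraries. They made up 27.7 and 35.2% of the cells of the Ms4a3_cKO libraries and 36.7 and 22.8% of those of the Flox_control libraries. The UMI shares therefore depend on cell numbers and depth as well as on level. With each cell thinned to 1000 UMIs, 6.22 and 6.48% of microglia in Ms4a3_cKO brains and 3.05 and 7.02% in Flox_control brains held a Tgfb1 UMI, so the gene was sparse per cell even where it was highest; without thinning the shares were 25.5 and 27.4% against 15.9 and 28.8%. In oligodendrocytes, a class at the bottom of the Tgfb1 order, the thinned shares were 0.230 and 0.683% against 0 and 0.303%.

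Tgfb2 had a non-immune pattern. Choroid plexus epithelium, which makes cerebrospinal fluid, was highest with 322 and 252 CPM in Ms4a3_cKO brains and 371 and 422 in Flox_control brains, above every library of the next class. Mural cells (148 ± 19.8), endothelial cells (125 ± 68.4), astrocytes (119 ± 59.0) and oligodendrocyte precursors (110 ± 75.6; SD, n = 4 libraries) formed a second group whose ranges overlapped. In microglia, monocyte-macrophages and border macrophages the mean stayed under 2 CPM. Tgfb3 was scarce: its highest class, mural cells, had 15 and 9.86 CPM in Ms4a3_cKO brains and 7.56 and 1.91 in Flox_control brains, the value of 7.56 coming from 1 UMI, and all cells together gave 386 Tgfb3 UMIs against 10715 of Tgfb1.

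**Figure D1:**
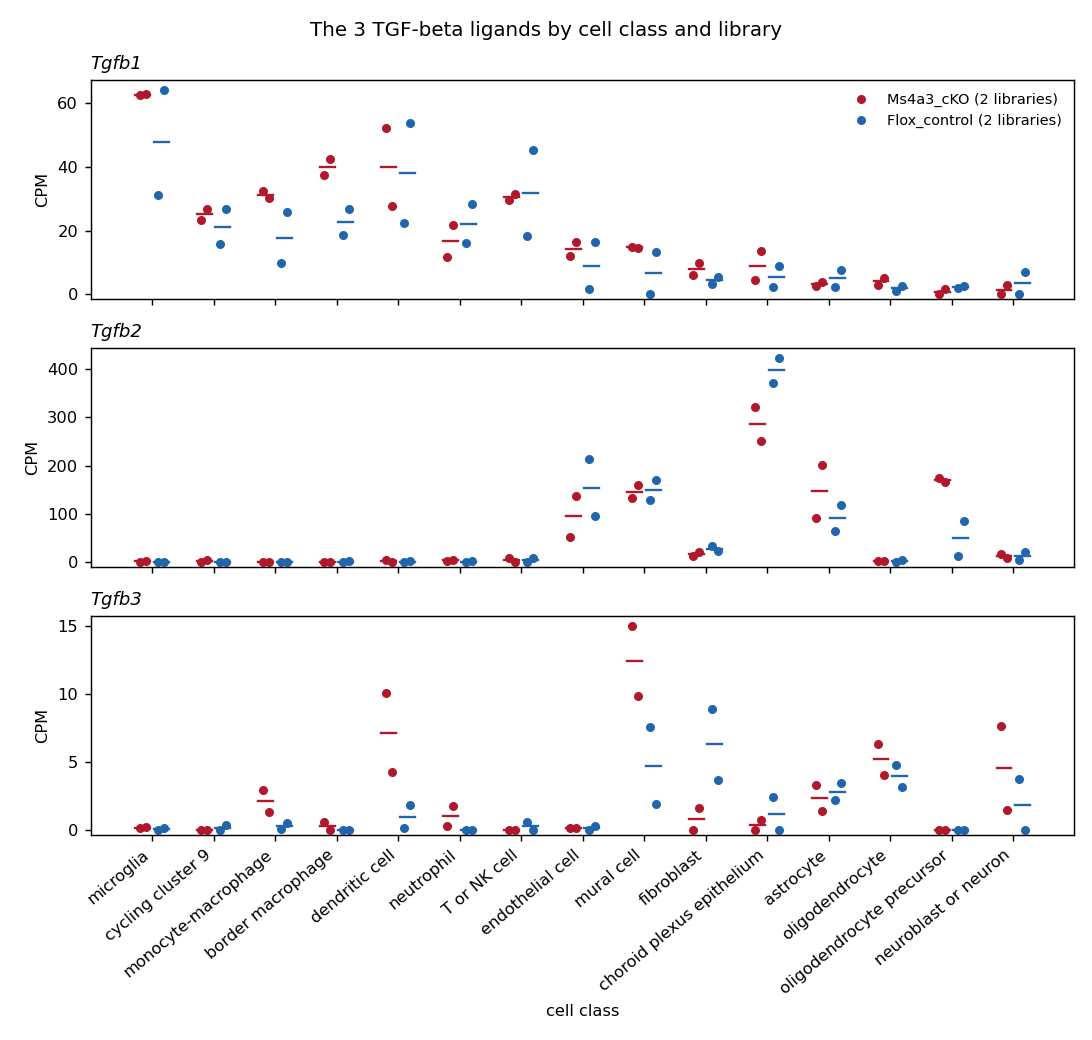
Levels of the ligands Tgfb1, Tgfb2 and Tgfb3 (vertical axes, CPM within the class) in 15 cell classes (horizontal axis), 1 point per library and a bar at each genotype's mean, with Ms4a3_cKO in red left of Flox_control in blue. Tgfb1 is highest in microglia, Tgfb2 in choroid plexus epithelium with none of the microglial libraries above 3.69, and Tgfb3 reaches 15 at most, in mural cells.

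The latency proteins divided the classes in a similar way. Nrros, which tethers latent TGF-beta on myeloid cells, was highest in border macrophages (427 ± 63.6), monocyte-macrophages (381 ± 18.3) and dendritic cells (374 ± 39.0; SD, n = 4 libraries). Microglia, at 252 ± 7.2, lay below all libraries of these 3 classes. Ltbp1, the matrix-bound binding protein, was found in mural cells (87.8 ± 40.6), fibroblasts (64.5 ± 37.1), astrocytes (61.7 ± 8.5) and oligodendrocyte precursors (51.2 ± 30.5). All 3 macrophage classes averaged under 1 for Ltbp1 in CPM.

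Both receptors were present in every class but in different orders. Tgfbr1, the type I receptor kinase, had 704 and 813 CPM in microglia of Ms4a3_cKO brains and 907 and 816 in those of Flox_control brains. All 4 microglial libraries were above those of the next class, cycling cluster 9, at 452 ± 31.9. Tgfbr2, the ligand-binding type II receptor, was highest in endothelial cells, with 1082 and 961 CPM in Ms4a3_cKO brains and 746 and 779 in Flox_control brains, and microglia followed at 785 ± 141 with overlapping values. Oligodendrocytes, their precursors and neuroblasts or neurons were lowest for Tgfbr2, at 21.7 ± 9.2, 23.2 ± 11.6 and 29.9 ± 15.

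Smad3, the transducer of the active receptor, was low throughout. T or NK cells (46.5 ± 28.9), fibroblasts (44.5 ± 15.8) and microglia (38.7 ± 6.4) led with overlapping ranges, and monocyte-macrophages had 10.0 ± 0.9. Smad7, the feedback inhibitor, was highest in oligodendrocytes, with 195 and 212 CPM in Ms4a3_cKO brains and 289 and 272 in Flox_control brains. The lowest oligodendrocyte library lay above the highest microglial one, 167. Border macrophages had the least Smad7 of the 15 classes with cells in all libraries, 14.8 ± 3.8.

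Tgfbi, a secreted matrix protein named for its induction by TGF-beta, had its highest means in dendritic cells, monocyte-macrophages and fibroblasts. Dendritic cells had 2390 and 1726 CPM in Ms4a3_cKO brains and 1404 and 1534 in Flox_control brains. Monocyte-macrophages followed with 2204 and 1270 against 315 and 861, and fibroblasts with 595 and 700 against 2473 and 713. These 3 classes overlapped. Dendritic cells numbered 144 and 109 in the Ms4a3_cKO libraries against 1049 and 1067 in the Flox_control libraries. Monocyte-macrophage markers, 14 of 15 at 20 CPM or more in dendritic cells, summed to 7900 and 6637 against 6156 and 5796. Dendritic cell markers, 11 of 13 at that level, summed to 1705 and 1896 against 1608 and 2099, and their part was not tested. The monocyte-macrophage and fibroblast means rested on widely spread libraries, with the lowest monocyte-macrophage value and the highest fibroblast value both in Flox_control replicate 1. Border macrophages (mean 766) and neutrophils (625) came next, and microglia (241) had a higher mean than mural cells (165), with ranges that overlapped between neighbours. Endothelial cells, astrocytes and T or NK cells averaged under 50.

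**Figure D2:**
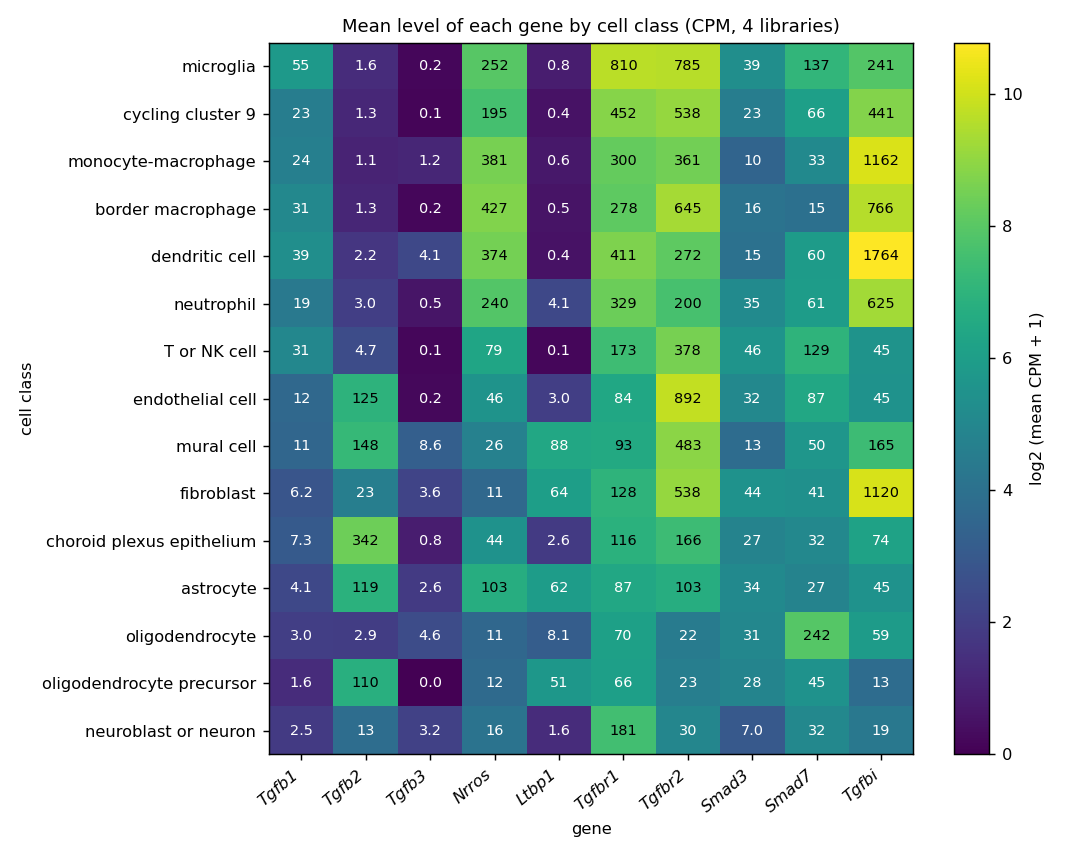
Mean level of the 10 genes (columns) in 15 cell classes (rows), in CPM over 4 libraries; colour is log2 (mean + 1) and each cell prints its mean. Tgfb1 and Tgfbr1 peak in microglia (55.0 and 810) and Nrros in border macrophages (427), Tgfb2 and Ltbp1 peak outside the immune classes, and Smad7 peaks in oligodendrocytes (242).

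For each of the 10 genes, the 3 most similar of 11474 genes were sought by Pearson correlation of log2 levels over the 15 classes, a description over classes that share libraries and depth. Tgfb1 was closest to Sp110 (r = 0.96), Hps3 and Rap1b, and Nrros to Fcer1g (r = 0.96), the common Fc receptor gamma chain, then Cyth4 and Inpp5d. Tgfbr1 was closest to Fcrl1 (r = 0.95), Cux1 and Pou2f2, and Tgfbr2 to Tmem140 (r = 0.94), Elk3 and Itpripl2. Tgfb2 was closest to Nipal2 (r = 0.97) and Pdzd2, and Ltbp1 to Spry4 (r = 0.95), Cdh11 and Tnc. Tgfbi was closest to Tnfaip2 (r = 0.89), Serp1 and Mmp19, Smad3 to Nacc1 (r = 0.81), Slc35a2 and Saraf, and Smad7 to Prr5l (r = 0.73), Herc2 and Ggct. Tgfb3, whose levels never reached 20 CPM in a class mean, was closest to Lama2 (r = 0.80), Ldb3 and Grm3.

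Monocyte-macrophages, a class named as cells like the blood-derived phagocytes of a lesion, were set against the microglia of the same libraries. Tgfbi and Nrros were higher in monocyte-macrophages, and Tgfb1, both receptors, Smad3 and Smad7 were lower. Thus 7 of 9 members tested passed an adjusted p of 0.05, 2 higher and 5 lower, where 54.4% of all 13576 genes tested passed, 27.1% higher and 27.2% lower. The median log2 difference of the members was -0.97, against -0.02 over all genes tested.

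Tgfbi had 2204, 1270, 315 and 861 CPM in monocyte-macrophages of the 4 libraries against 464, 273, 54.3 and 172 in microglia. The class difference was similar in each library although the levels differed widely, and the log2 difference was 2.47 with an SE of 0.10 (adjusted p = 3.04e-05). Nrros was 369, 363, 388 and 403 against 246, 260, 246 and 256, a log2 difference of 0.74 with an SE of 0.07 (adjusted p = 0.000317), and the classes did not overlap.

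Tgfb1 was lower in monocyte-macrophages in each of the 4 libraries, at 32.3, 30.1, 9.77 and 25.6 CPM against 62.3, 62.7, 31.2 and 64.0 in microglia (log2 fold change -1.10, SE 0.12). Its level in both classes was lowest in Flox_control replicate 1. Tgfbr1 had 241, 293, 337 and 329 in monocyte-macrophages against 704, 813, 907 and 816 in microglia (-1.30, SE 0.07), and Tgfbr2 had 320, 354, 413 and 358 against 719, 716, 996 and 711 (-0.97, SE 0.06). The 2 classes did not overlap for either receptor.

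Smad3 and Smad7 showed the largest drops among the members. Smad3 had 10.6, 9.59, 9.0 and 10.9 CPM in monocyte-macrophages against 37.5, 31.7, 47.2 and 38.6 in microglia (-1.81, SE 0.11). Smad7 had 32.9, 34.0, 27.5 and 38.7 against 106, 109, 167 and 167 (-1.88, SE 0.16). Tgfb2 and Ltbp1, both with means under 2 CPM in these cells, did not pass the test.

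**Figure D3:**
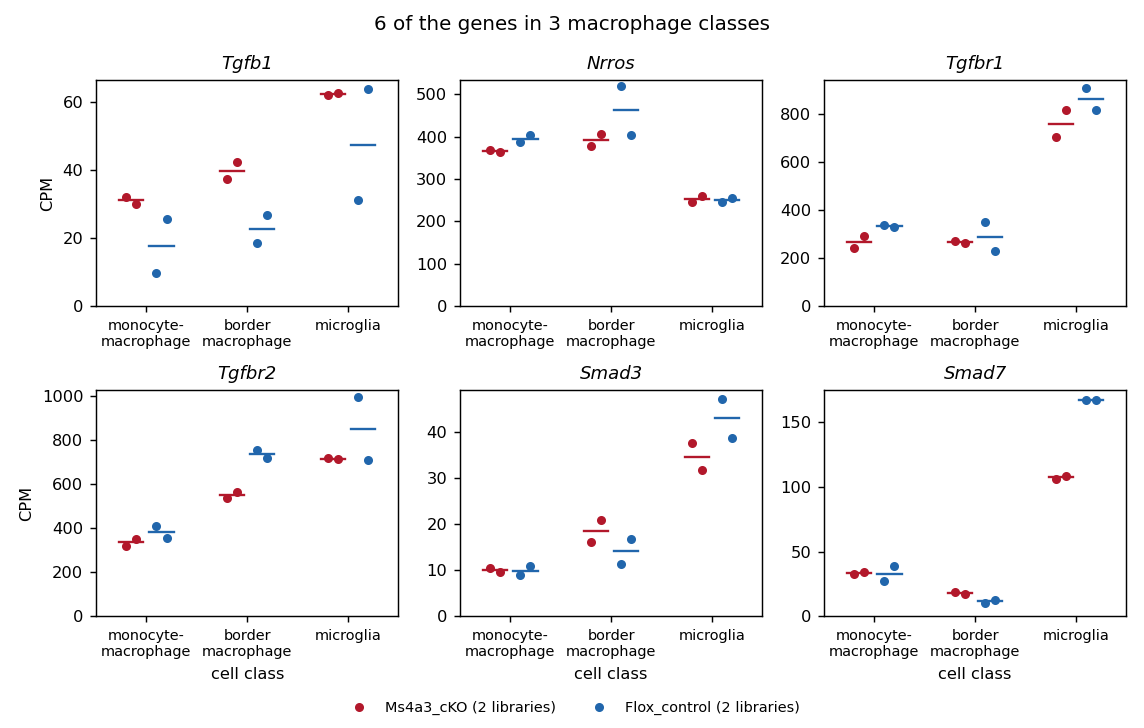
Levels of 6 of the genes (vertical axes, CPM) in monocyte-macrophages, border macrophages and microglia (horizontal axes), 1 point per library and a bar at each genotype's mean, Ms4a3_cKO in red left of Flox_control in blue. Tgfbr1, Smad3 and Smad7 are higher in every microglial library than in any library of the other classes, and Nrros is lower.

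Other pathway genes, taken from 5 lists, moved both ways between the 2 classes. Of the latency and activation list, 3 of 8 tested genes were higher in monocyte-macrophages and 2 lower: Thbs1, a secreted activator of latent TGF-beta, by a log2 fold change of 5.04, the binding protein Ltbp3 by 2.16 and the protease Furin by 0.16, against -5.29 for the integrin Itgb3 and -0.72 for Itgb5. Thbs1 is also on the marker list that named the monocyte-macrophages, so its direction here was fixed by the class names. Of 8 receptors and co-receptors, Cd109 (2.35), Bambi (1.65) and Acvrl1 (0.40) were higher and Eng (-1.76) and Acvr1 (-1.24) lower. Of 13 SMADs and partners, 3 were higher (Smad6, Zfyve9 and Ppm1a) and 5 lower (Smurf1, Skil, Smad1, Smad5 and Ski).

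Of 21 response genes tested, 6 were higher and 5 lower, shares close to the 27.1% and 27.2% of all genes against which the lists above are also to be read. The higher ones were Timp1 (4.29), Bhlhe40 (2.66), Acta2 (2.22), Id3 (1.46), Tsc22d1 (1.27) and Id1 (0.48). Acta2 was low there: it is 1 of 11 mural cell markers that together summed to 11.4, 16.6, 1.78 and 9.83 CPM in monocyte-macrophages. The lower ones included Postn (-4.50), the SMAD inhibitors Ldlrad4 (-2.38) and Pmepa1 (-1.28), and Junb (-1.17). All 14 genes of the list of microglial genes that depend on TGF-beta were lower in monocyte-macrophages, with a median of -2.36; these are largely markers of microglia, several of which named the clusters, so the direction was fixed by the class names.

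Border macrophages against microglia gave a like pattern for the members: Tgfbi and Nrros were higher, and Tgfb1, Tgfbr1, Tgfbr2, Smad3 and Smad7 lower. Of 8 members tested 7 passed, 2 higher and 5 lower, where 34.4% of 12374 genes passed, 16.5% higher and 18% lower. This comparison and the one above share the microglial sums. Smad7 differed most, with 18.7, 17.2, 10.7 and 12.5 CPM in border macrophages against 106, 109, 167 and 167 in microglia, a log2 difference of -3.23 with an SE of 0.23 (adjusted p = 3.03e-06). Tgfbi had 1089, 1013, 430 and 530 against 464, 273, 54.3 and 172 (1.89, SE 0.21) and Nrros 377, 406, 520 and 403 against 246, 260, 246 and 256 (0.72, SE 0.09). For Tgfbi the classes overlapped between libraries, although border macrophages were higher within each library; for Nrros they did not.

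The remaining members were lower in border macrophages to different degrees. The log2 fold changes were -1.58 (SE 0.10) for Tgfbr1, -1.23 (SE 0.20) for Smad3 and -0.85 (SE 0.14) for Tgfb1. Tgfbr2 differed least, with 536, 567, 755 and 722 CPM against 719, 716, 996 and 711 (-0.31, SE 0.10, adjusted p = 0.041); in Flox_control replicate 2 it was the border macrophages that were slightly higher. The Tgfbr2 call was lost without Ms4a3_cKO replicate 1, Ms4a3_cKO replicate 2 or Flox_control replicate 1 (adjusted p = 0.13, 0.11 and 0.12), at Leiden resolution 0.5 (0.29), and with the members and pathway genes kept out of the clustering (0.10). Beside it, 4 of 8 latency and activation genes were lower, led by Itgb3 (-4.95) and Itgb5 (-1.41), and Thbs1 was higher (1.20).

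Neutrophils, which like monocytes descend from Ms4a3-expressing progenitors, were set against monocyte-macrophages. The 14 neutrophil markers summed to 66933, 60928, 91773 and 17979 CPM in neutrophils of the 4 libraries. What part this spread had in the comparison was not tested. Of 8 members tested 5 passed, 3 higher and 2 lower, where 50.8% of 11468 genes passed, 23.6% higher and 27.2% lower. Smad3 had 14.5, 9.0, 77.1 and 39.5 CPM in neutrophils against 10.6, 9.59, 9.0 and 10.9 in monocyte-macrophages (1.32, SE 0.43), higher by far in the Flox_control libraries and close in the Ms4a3_cKO libraries. Smad7 had 44.1, 52.2, 67.5 and 80.3 against 32.9, 34.0, 27.5 and 38.7 (0.71, SE 0.20), higher in each library. Tgfb2 also passed as higher (1.41, SE 0.53), but on 11, 3, 0 and 2 UMIs in neutrophils, and the call was lost under 7 of 11 alternatives (adjusted p = 0.069 with DESeq2).

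Tgfbr2 was lower in neutrophils, with 212, 191, 177 and 221 CPM against 320, 354, 413 and 358 (-0.96, SE 0.21), and so was Nrros, with 199, 133, 302 and 327 against 369, 363, 388 and 403 (-0.86, SE 0.23). For both genes the 2 classes did not overlap. Without Ms4a3_cKO replicate 2, 3 members passed in this comparison, and without Flox_control replicate 2 only Tgfbr2 and Nrros did.

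The genotypes were compared within each class. In microglia, 0 of 9 members tested passed edgeR's adjusted p of 0.05 for Ms4a3_cKO over Flox_control, where 0% of 14014 genes passed; 3 members, and 1497 genes in all, had an unadjusted p under 0.05. DESeq2 called 2 members, Smad7 and Tgfbi, and 281 genes. The 2 libraries of 1 genotype lay entirely on 1 side of the other for 6 of 9 members, against 49.4% of all genes tested, so that split was common among all genes in this class.

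Smad7 had 106 and 109 CPM in microglia of Ms4a3_cKO brains against 167 and 167 in those of Flox_control brains. The genotypes did not overlap and the libraries of each were close together, and the log2 fold change was -0.79 (SE 0.14, adjusted p = 0.40 with edgeR and 0.0089 with DESeq2). Smad7 was also below Flox_control within microglial cluster 0, at 73.5 and 81.3 against 109 and 99.2. Within cluster 1 it was lower too, at 158 and 162 against 301 and 309. Levels in the remaining microglial cluster, which held most of its cells from Flox_control replicate 1, are not given here. In microglia as a whole, Smad3 and Tgfbr1 leaned the same way as Smad7, with log2 fold changes of -0.47 (SE 0.23) and -0.34 (SE 0.19). The genotypes did not overlap for either gene, and neither passed.

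Tgfbi had 464 and 273 CPM in microglia of Ms4a3_cKO brains against 54.3 and 172 in those of Flox_control brains (log2 fold change 1.60, SE 0.52, adjusted p = 0.45 with edgeR and 0.030 with DESeq2). The genotypes did not overlap, but the spread within each was wider than the gap between them. Monocyte-macrophage markers, 6 of 15 of them at 20 CPM or more in microglia, summed to 1601 and 1074 against 819 and 1244 CPM there, the 13 microglial markers, all at that level, summed to 17822 and 18910 against 32154 and 22688, and their part in the result was not tested. Tgfbr2 (-0.42, SE 0.26), Tgfb1 (0.28, SE 0.29) and Nrros (-0.14, SE 0.14) overlapped between genotypes. Tgfb2 (2.17, SE 0.53) and Ltbp1 (1.03, SE 0.84) rested on levels under 4 CPM.

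In monocyte-macrophages, a class in which Htr2b did not overlap between genotypes, 0 of 10 members passed edgeR's test, where 0% of 13225 genes did; 2 members and 1685 genes had an unadjusted p under 0.05, and DESeq2 called 1 member, Tgfbi, and 522 genes. The genotypes did not overlap for 8 of 10 members, against 47.8% of all genes tested. Tgfbi stood at 2204 and 1270 CPM in Ms4a3_cKO brains against 315 and 861 in Flox_control brains (1.46, SE 0.46, adjusted p = 0.34 with edgeR and 0.016 with DESeq2). Within monocyte-macrophage cluster 15 it had 4250 and 2726 against 2736 and 2939 (0.33, SE 0.30), and within cluster 6 it had 1358 and 775 against 471 and 784 (0.69, SE 0.27, adjusted p = 0.65). The genotypes overlapped in both clusters, the 2 with at least 50 cells in every library. Monocyte-macrophage markers, 14 of 15 at 20 CPM or more in this class, summed to 21702 and 16126 against 11966 and 10419. Microglial markers, 8 of 13 at that level, summed to 3261 and 4082 against 9249 and 4938, border macrophage markers, 5 of 9, to 3763 and 2841 against 936 and 1191, and their part in the result was not tested.

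No other member passed in monocyte-macrophages. Tgfb1 had 32.3 and 30.1 CPM in Ms4a3_cKO brains against 9.77 and 25.6 in Flox_control brains (0.71, SE 0.36), Tgfbr1 241 and 293 against 337 and 329 (-0.51, SE 0.22), and Tgfbr2 320 and 354 against 413 and 358 (-0.40, SE 0.24). The genotypes were separate for all 3, by a narrow gap for Tgfbr2. Nrros, at 369 and 363 against 388 and 403 (-0.30, SE 0.19), was separate too, while Smad3 (-0.15, SE 0.21) and Smad7 (-0.15, SE 0.16) overlapped. Tgfb3 (2.60, SE 0.78), Tgfb2 (1.02, SE 0.79) and Ltbp1 (1.04, SE 0.73) had under 3 CPM in every library.

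These counts depended on which library was left out. Without Flox_control replicate 2, 8 of the microglial members and 7 of the monocyte-macrophage members passed, and 4171 and 3685 genes in all; without any other library, no member passed in either class. The libraries of Flox_control differed more than those of Ms4a3_cKO. The SD of log2 differences between the 2 libraries was 0.40 in Ms4a3_cKO and 0.86 in Flox_control for microglia. For monocyte-macrophages it was 0.50 in Ms4a3_cKO and 0.87 in Flox_control. By correlation of log2 levels in microglia, Flox_control replicate 2 stood at 0.979 and 0.983 to the Ms4a3_cKO libraries and 0.962 to Flox_control replicate 1. Flox_control replicate 1 stood at 0.946 and 0.956 to the Ms4a3_cKO libraries. In monocyte-macrophages the values were 0.971, 0.979 and 0.960, then 0.931 and 0.944. Leaving out Flox_control replicate 2 thus set Flox_control replicate 1, the library least like the others, against Ms4a3_cKO.

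The genotype effect was then compared between the 2 classes as an interaction, in a fit with library as a block. No member and 0% of 14543 genes passed with edgeR; 2 members and 1815 genes had an unadjusted p under 0.05, and DESeq2 called 1 member, Smad7, and 239 genes. The 2 members were Smad7, where the effect in monocyte-macrophages minus that in microglia was 0.67 (SE 0.14, adjusted p = 0.19), and Tgfb1, where it was 0.48 (SE 0.13, adjusted p = 0.27). For Tgfbi the difference was -0.20 (SE 0.16), small against the fold change in either class.

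**Figure D4:**
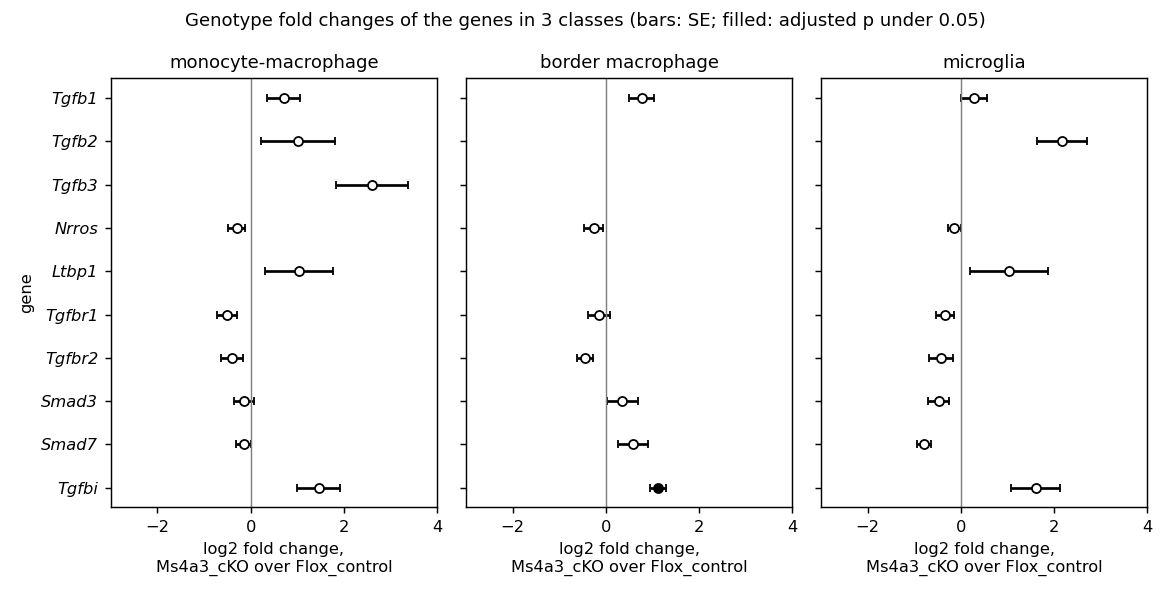
Log2 fold change of Ms4a3_cKO over Flox_control (horizontal axes) for the members tested (rows) in monocyte-macrophages, border macrophages and microglia; bars are SE and a filled point passed an adjusted p of 0.05. Tgfbi is right of 0 in all 3 classes and passed in border macrophages, at 1.11.

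In the other 10 classes with at least 50 cells in every library, 75 fold changes of members were tested and 1 passed, with 12 at an unadjusted p under 0.05, where 10.2% of 97220 tests of all genes were, and 2 called by DESeq2. Of all genes tested, 0.0256% passed in choroid plexus epithelium, 0.0296% in dendritic cells, 0.00867% in astrocytes and 0% in the 6 classes other than these and border macrophages. The member was Tgfbi in border macrophages, where 1 of 7 members passed against 0.564% of 9038 genes. Tgfbi had 1089 and 1013 CPM in border macrophages of Ms4a3_cKO brains against 430 and 530 in those of Flox_control brains, a rise of 1.11 on the log2 scale (SE 0.17, adjusted p = 0.047). Both Ms4a3_cKO libraries were well above the higher Flox_control library, and the libraries of each genotype were close. DESeq2 gave an adjusted p of 0.000126. A block pairing unlike replicate numbers across genotypes, added after seeing the data, gave an edgeR adjusted p of 0.0040 at a log2 fold change of 1.12. With the replicate number as a block the adjusted p was 0.11, at a log2 fold change of 1.12, and the call was also lost with a mean of at least 50 UMIs (0.056), with under 10% mitochondrial UMIs (0.055) and at Leiden resolution 0.5 (0.094); without Ms4a3_cKO replicate 1 it was 0.36 and without Ms4a3_cKO replicate 2 it was 0.28, at 1.06 and 1.17.

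Border macrophage markers moved with Tgfbi in this class. All 9 were at 20 CPM or more, and they summed to 18377 and 17340 in Ms4a3_cKO brains against 8826 and 10258 in Flox_control brains, while the 13 microglial markers, 9 of them at that level, summed to 3950 and 4643 against 9838 and 5843. Monocyte-macrophage markers, 11 of 15 at that level, differed less, at 2774 and 2593 against 2285 and 2218. Their part in the result was not tested. One further pathway gene passed there, Fcrls of the microglial list, with 263 and 324 CPM against 1346 and 784 (-1.89, SE 0.29, adjusted p = 0.047). Tgfb1 (0.77, SE 0.26) and Tgfbr2 (-0.44, SE 0.16) had no overlap between genotypes in border macrophages and did not pass; 4 of 7 members did not overlap there, against 46.3% of genes.

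The start of Tgfbi is shown because it was the only one of the 10 genes to pass the genotype test. The bases run up to the start of the gene in GENCODE vM21, on the plus strand of GRCm38 at chr13:56609336-56609522, from the RefSeq promoter table (GRCm38.p6), and capitals mark CAGAC or its reverse complement GTCTG, the letters of a SMAD-binding element.
Tgfbi promoter: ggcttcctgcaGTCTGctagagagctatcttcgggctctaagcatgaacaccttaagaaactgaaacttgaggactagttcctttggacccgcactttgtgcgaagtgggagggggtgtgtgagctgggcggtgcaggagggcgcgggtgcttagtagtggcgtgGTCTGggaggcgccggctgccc
The motif occurred 2 times in these 187 bases. In the 250 bases before the RefSeq start, 42.2% of 32851 mouse promoters held it on either strand and 11.7% held it at least 2 times, so a match describes the letters only. Promoters of 8 of the 10 genes were in the table. The gene itself spans chr13:56609523-56639562 with up to 17 exons and overlaps no other annotated gene. Of the members, Tgfb2 shares exonic bases with Gm29491 and Tgfb3 with Gm37804 and Gm48008, all on the opposite strand, and whether the counting used strand is not given in the sources used here.

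Tgfbi did not pass in the remaining classes, and its direction was not uniform. Cycling cluster 9 had 782 and 502 CPM in Ms4a3_cKO brains against 132 and 350 in Flox_control brains (1.36, SE 0.44, adjusted p = 0.54). Dendritic cells had 2390 and 1726 against 1404 and 1534, neutrophils 978 and 428 against 536 and 555, and fibroblasts 595 and 700 against 2473 and 713 (-1.41, SE 0.62). In endothelial cells, where the gene was low, the values were 51.0 and 35.8 against 3.59 and 88.9.

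**Figure D5:**
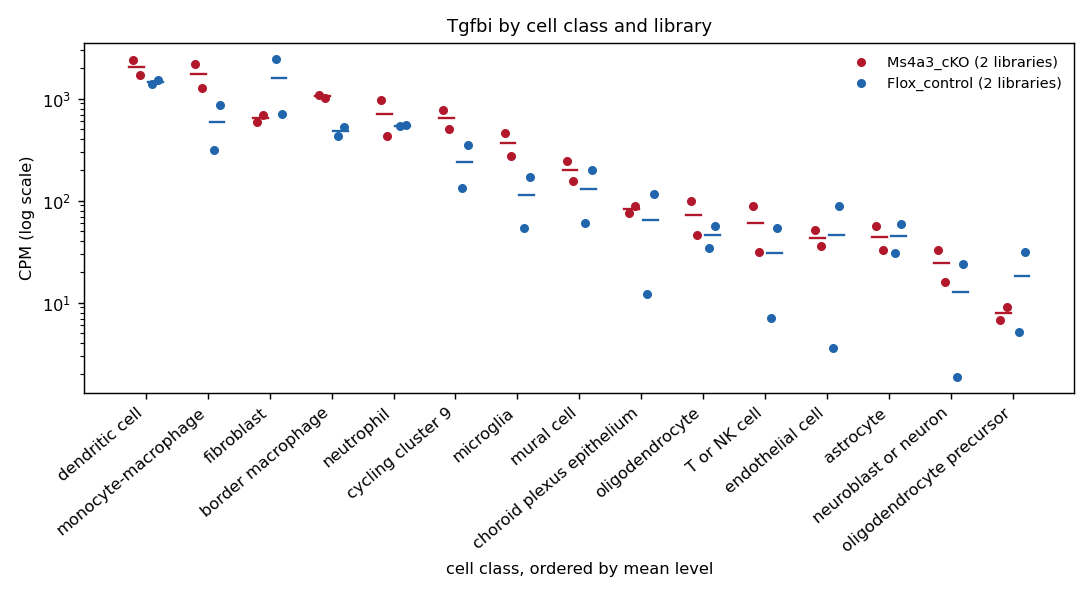
Tgfbi level (vertical axis, CPM, log scale) in 15 cell classes ordered by mean level (horizontal axis), 1 point per library and a bar at each genotype's mean, Ms4a3_cKO in red left of Flox_control in blue. Both Ms4a3_cKO libraries lie above both Flox_control libraries in dendritic cells, monocyte-macrophages, border macrophages, cycling cluster 9 and microglia, and below them in fibroblasts. Genotypes did not overlap for 47.8% of all genes in monocyte-macrophages, 46.3% in border macrophages and 49.4% in microglia. All classes come from the same 4 libraries, so the classes are not independent.

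Several members in other classes were far apart between genotypes without passing. In neutrophils Tgfbr1 had 153 and 205 CPM in Ms4a3_cKO brains against 402 and 558 in Flox_control brains (-1.47, SE 0.33, adjusted p = 0.32), and Smad3 had 14.5 and 9.0 against 77.1 and 39.5 (-2.20, SE 0.61, adjusted p = 0.42), from 41, 5, 24 and 28 UMIs. None of 7 members passed there, where 0% of 6603 genes did, and DESeq2 called none of the members. An unadjusted p under 0.05 was found for 3 members and for 6.78% of all genes. The genotypes did not overlap for 4 members, against 33.3% of genes. The 14 neutrophil markers, all at 20 CPM or more in this class, summed to 66933 and 60928 against 91773 and 17979. Microglial markers, 8 of 13 at that level, summed to 1897 and 1921 against 1205 and 3114, and their part was not tested. In astrocytes Nrros had 142 and 163 against 65.2 and 44.0 (1.50, SE 0.29, adjusted p = 0.22 with edgeR and 0.023 with DESeq2), and none of 8 members passed, while 5 of 8 did not overlap, against 50.8% of genes. Nrros in astrocyte cluster 20 was 396 and 293 against 64.4 and 114, and the genotypes did not overlap. Levels in cluster 14, the larger astrocyte cluster with 1522 of 2345 cells, are not given here. Cluster 14 also scored on the ependymal marker list (3.02, against 4.73 on the astrocyte list). Ependymal markers, 7 of 8 at 20 CPM or more in astrocytes, summed to 334 and 150 against 1293 and 156, and their part was not tested. Microglial markers, 7 of 13 at 20 CPM or more in astrocytes, summed to 3030 and 3655 against 2331 and 2337 there, and their part in the result was not tested.

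The largest fold change outside the macrophage classes was that of Tgfb3 in dendritic cells, with 10.1 and 4.25 CPM in Ms4a3_cKO brains against 0.177 and 1.85 in Flox_control brains (2.79, SE 1.14, adjusted p = 0.55), from 6, 2, 1 and 9 UMIs. Ltbp1 in endothelial cells, with 3.53 and 5.78 against 0 and 2.72 (1.10, SE 0.74), and Tgfbr2 in neuroblasts or neurons, with 43.3 and 38.1 against 9.38 and 28.6 (1.08, SE 0.56), did not overlap either and did not pass.

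The 5 pathway lists had no gene past the threshold for genotype in microglia or monocyte-macrophages. In microglia the median log2 fold change of the 14 TGF-beta-dependent genes was -0.52 against 0.00 over all genes, with 12 negative and 2 positive. The 13 microglial markers, several of them on this list, had the lower sums in Ms4a3_cKO microglia given above, and cluster 3, with Siglech among its leading genes, held 3024 of its 4425 cells from Flox_control replicate 1; their part in the result was not tested. The smallest p belonged to Olfml3, with 92.6 and 78.8 CPM in Ms4a3_cKO brains against 166 and 181 in Flox_control brains (-1.17, SE 0.15, adjusted p = 0.24), and Siglech, with 198 and 265 against 540 and 404. Both genes were separate between genotypes. In monocyte-macrophages the same list had a median of 0.04, 7 positive and 7 negative; Olfml3 was 16.5 and 17.6 against 30.5 and 33.5, and P2ry12 was 264 and 279 against 126 and 136.

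Among activators, Thbs1 had 263 and 219 CPM in microglia of Ms4a3_cKO brains against 35.9 and 112 in those of Flox_control brains (1.61, SE 0.47), with Furin next (0.52, SE 0.20). Thbs1 is also on the monocyte-macrophage marker list, whose part in the microglial result was not tested. In monocyte-macrophages the integrin subunit Itgav had 197 and 188 against 497 and 396 (-1.43, SE 0.27), with Itgb5 next (-0.62, SE 0.14). Bambi, a decoy receptor, was the receptor gene with the smallest p in microglia, at 4.56 and 3.72 against 11.6 and 6.68, and in monocyte-macrophages Acvr1 came first (-0.63, SE 0.18) and Bambi second (-1.38, SE 0.42). None of these passed.

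Among SMADs and partners, Smurf2, a ubiquitin ligase of the receptor complex, had 215 and 204 CPM in microglia of Ms4a3_cKO brains against 123 and 147 in those of Flox_control brains (0.50, SE 0.13), followed by Zfyve9 (0.69, SE 0.19). In monocyte-macrophages Smad1 (0.40, SE 0.15) and Smad4 (0.41, SE 0.16) had the smallest p. Of the response genes, Col3a1 (-4.58, SE 0.63) and Postn (2.62, SE 0.40) led in microglia and Klf10 (0.82, SE 0.15) and Col3a1 (-3.05, SE 0.58) in monocyte-macrophages. Col3a1 lay under 10 CPM in both classes, and Klf10, an early TGF-beta target, had 86.3 and 86.2 in monocyte-macrophages of Ms4a3_cKO brains against 36.0 and 51.3 in those of Flox_control brains.

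Members also varied inside the classes. Microglial cluster 1 had higher means than cluster 0 for Tgfb1 (94.9 against 35.1 CPM), Tgfbr1 (1403 against 511), Smad7 (233 against 90.6) and Smad3 (58.5 against 28.7), and a lower one for Tgfbi (89.1 against 328), while Tgfbr2 was close (799 against 751). Among monocyte-macrophages, Tgfbi averaged 3163 in cluster 15 and 847 in cluster 6, and Tgfb1 52.6 against 22.6. Clusters were made from the same counts, so these are descriptions with no test.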

How the data were processed

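Groups were taken from sample titles. The authors deposited one whole-number UMI count for each gene in each barcode, without normalization; per the submitters' processing notes the authors used fastp 0.24.0 and STARsolo with mm10. Genes, classes and lists were chosen with earlier results of these data known. Barcodes were kept from 500 UMIs and 250 genes upward where mitochondrial UMIs made up less than 20% (60942 of 63181), and 1257 doublets predicted by Scrublet (expected rate 6%) were removed. Cells were clustered with scanpy 1.11.5 and leidenalg 0.10.2 (2000 variable genes, 3 of them members; 30 components, 15 neighbours, resolution 1, no batch integration), and clusters were named from marker lists, not by the authors. Counts were summed per library and class and tested in R 4.3.3 by the quasi-likelihood test of edgeR 4.0.16 after filterByExpr and TMM scaling, with Benjamini-Hochberg adjustment over all genes tested and a threshold of 0.05; DESeq2 1.42.0 was an alternative. Class comparisons and the interaction had library as a block. SE is the absolute log2 fold change over the square root of F. Pathway genes named are those that passed, or the 2 of each list with the smallest p. A gene named by these rules in the class comparison and one in the similarity search are not reported here. Tests were checked on simulated counts with the same spread for every gene and no difference between libraries beyond depth. That check covers the calculation and not the spread between these libraries. Positions are from GENCODE vM21 on GRCm38, the build mm10 names. In microglia, deviations of same-numbered libraries correlated at -0.13, so replicate numbers were not taken as pairs. Mural cells, T or NK cells, oligodendrocyte precursors and cycling cluster 23 had under 50 cells in a library and were not tested for genotype. A share limit of 3 UMIs and thinning to 1000 UMIs cover counting error only.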

Additional observations from a re-analysis of the deposited data

How the results depend on the processing

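The 7 members called in monocyte-macrophages over microglia and in border macrophages over microglia kept their directions under every alternative run (DESeq2 and its size factors, low counts unfiltered or filtered at a mean of 50 UMIs, predicted doublets retained, a mitochondrial limit of 10%, cells from 1000 UMIs, Leiden resolution 0.5, members and pathway genes left out of the variable genes, each library left out).

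Counts of members called for genotype changed as follows. DESeq2 called 2 in microglia, 1 in monocyte-macrophages, 2 in the other classes and 1 in the interaction, and 281, 522, 1390 and 239 genes. With no filter on low counts these were 3, 2, 6 and 1 members and 987, 1285, 4489 and 858 genes. In the other classes, where 1 member and 57 genes were called, 0 members were called with a mean of at least 50 UMIs (32 genes), under 10% mitochondrial UMIs, at Leiden resolution 0.5 (34 genes) or with the replicate number as a block; keeping doublets gave 89 genes and leaving members and pathway genes out of the variable genes 138, and 12 in the interaction. The replicate block gave 33 genes and 0 members in microglia. The crossed block, added after seeing the data like the single-cluster fits, gave 9, 228 and 728 genes in microglia, monocyte-macrophages and the other classes, and 1 member in monocyte-macrophages. Microglial cluster 1 alone gave 32 genes, and monocyte-macrophage clusters 15 and 6 gave 1 and 11.

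With 1 library left out, members called were 0 to 8 in microglia, 0 to 7 in monocyte-macrophages, 0 to 12 in the other classes, 0 to 1 in the interaction and 2 to 6 in neutrophils over monocyte-macrophages; genes called were 0 to 4171, 4 to 3685, 160 to 9526 and 0 to 815 in the first 4. The highest counts came without Flox_control replicate 2, apart from neutrophils; the lone library left in a group is assumed to vary like the others. The cause was not tested.

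Of 1852 member fold changes under alternatives 92 changed sign, 54 of them with 1 library left out; 0 of the 92 were called in the main comparison or under the alternative. Among those in the macrophage and neutrophil comparisons were Tgfb1 in microglia (-0.016 in cluster 1, and -0.076 to 0.72 with 1 library left out), Ltbp1 in microglial cluster 1 (-0.26) and Tgfb1 in monocyte-macrophage cluster 15 (-0.17). Tgfb2 in border macrophages over microglia was -0.043 with no filter, -0.45 at Leiden resolution 0.5, -0.33 with members left out and -1.17 to 0.94 with 1 library left out, and in monocyte-macrophages over microglia -0.69 to 0.050 with 1 library left out. Tgfbr1 in neutrophils over monocyte-macrophages was 0.0012 with a mean of at least 50 UMIs, and the Tgfbi interaction -0.39 to 0.0038 with 1 library left out. The main limit is 2 libraries per genotype. Tgfb3, Tgfb2 and Ltbp1 averaged under 2 CPM in each macrophage class, so their fold changes there rest on low levels.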
